A study of Homo sapiens with 24 samples.

Results

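PANC1, a cell line grown from a human pancreatic ductal adenocarcinoma, was treated for 24 h with 300 uM lonidamine or with vehicle, and its messenger RNA was sequenced. The members are 6 of the 24 libraries of the series, 3 lonidamine and 3 vehicle libraries, picked by their labelled line and treatment. The 3 lonidamine libraries hold PANC1 cells given lonidamine alone, and the 3 vehicle libraries hold PANC1 cells given vehicle alone. The other groups used here are 3 PANC1 libraries given 5 uM SR4, a compound known from the labels only by its code name, and the 3 lonidamine and 3 vehicle libraries of BXPC3, a second pancreatic adenocarcinoma line. All cells grew in low-glucose medium with serum, and the design sets each agent and their combination against vehicle in both lines. Nothing in the sources used here says what the vehicle was or whether the replicates were separate cultures, so the p-values measure the spread between these libraries, which may be technical.

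Lonidamine is an indazole carboxylic acid known to block the mitochondrial pyruvate carrier, the monocarboxylate transporters that export lactate, and succinate dehydrogenase, which is complex II of the respiratory chain. It was first described as an inhibitor of mitochondrially bound hexokinase. Cells whose mitochondria fail are known to activate kinases that phosphorylate the translation factor eIF2alpha, after which the transcription factor ATF4 is made and switches on genes of amino acid synthesis and import. Pancreatic adenocarcinoma cells are known for high glucose use, lactate export and dependence on recycling of their own components.

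The lonidamine libraries held 10380298, 11092580 and 11822495 counts and the vehicle libraries 9541034, 8873041 and 8972352, so the lonidamine libraries were deeper. On the first principal component of these 6 libraries, which took 85.6% of the variance, the groups did not overlap. Of the markers of a ductal carcinoma line, CDKN2A, a gene deleted in PANC1, had 0 counts in every library, and SMAD4, which PANC1 retains, was present at 63.9, 58.8 and 66.5 CPM in the lonidamine libraries, against 49.2, 52.2 and 52.8 CPM in the vehicle libraries (CPM, counts scaled to library size by the TMM method). Vimentin (VIM), the intermediate filament of mesenchymal-type cells, was present at 3418, 3436 and 3440.3 CPM in the lonidamine libraries, against 4256, 4173 and 4171 CPM in the vehicle libraries. All or all but 1 of 8 acinar markers, and 3 to 5 of 5 endothelial markers, were at 0 counts in each library. The summed level of 7 immune markers was 141 to 144 CPM with lonidamine and 120.1 to 128 CPM with vehicle, and nearly all of it was CD68, while that of 7 fibroblast markers was 32.2 to 35.8 CPM with lonidamine and 85.1 to 91.1 CPM with vehicle, nearly all of it COL1A1.

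Lonidamine changed 8659 of 12514 genes tested in PANC1 (69.2%). Of these 12514 genes, 4381 rose (35.0%) and 4278 fell (34.2%) in edgeR's quasi-likelihood test at a Benjamini-Hochberg adjusted p under 0.05. At least a 2-fold change was found for 819 genes that rose (6.54%) and 1017 genes that fell (8.13%). The lonidamine and vehicle libraries did not overlap in 8995 genes (71.9%). The median log2 change of all genes was 0.01. The counts over gene lists below stand beside 35.0% that rose and 34.2% that fell, and the lists were chosen with earlier results of these data known.

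**Figure D1:**
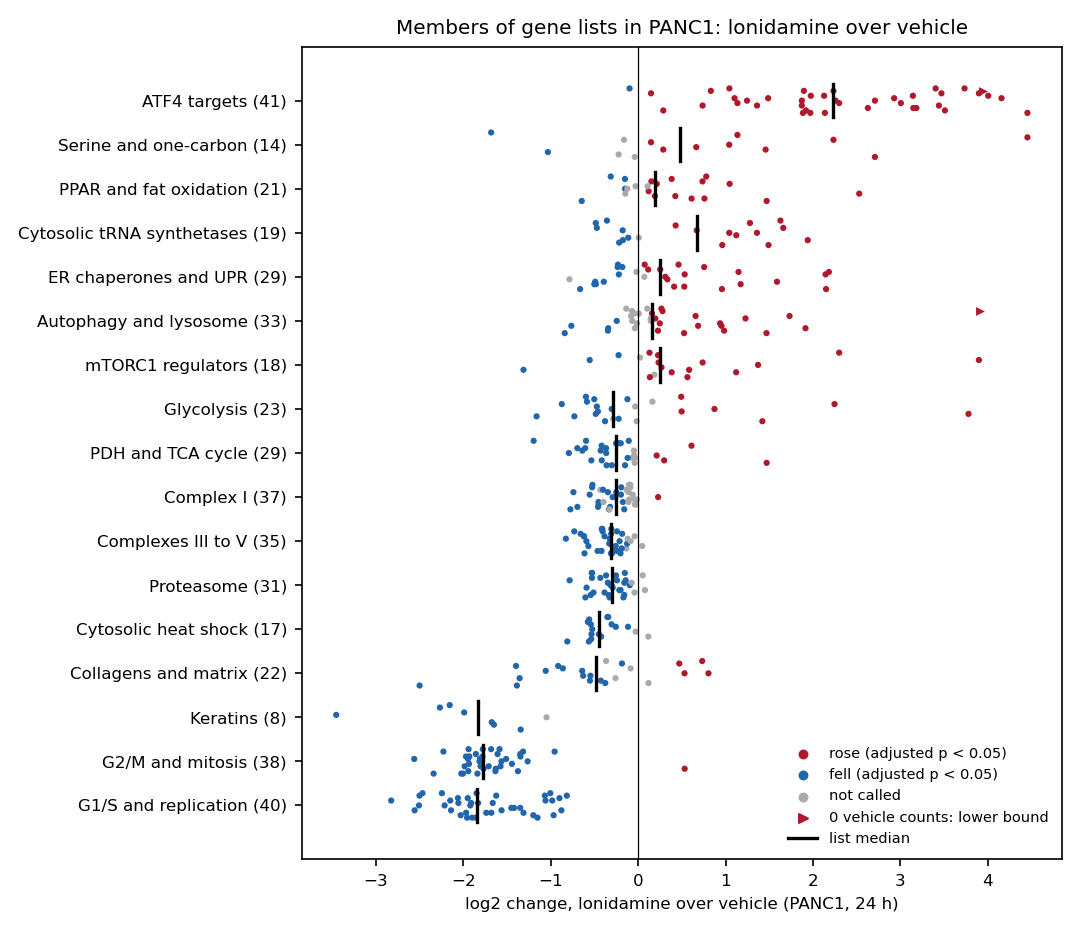
Each point is 1 gene of a named list and its position on the horizontal axis is the log2 change in PANC1, lonidamine over vehicle, from 3 libraries a group; red points rose, blue points fell and grey points were not called, and a black bar marks the list median. A red triangle stands at the lower bound of a gene with 0 vehicle counts, and 1 gene near 0 in both groups is not drawn. The ATF4 targets lie to the right with a median of 2.24, and the replication and mitosis lists lie to the left with medians of -1.84 and -1.78.

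Genes for lonidamine's reported targets and the fuels around them were described first. Of 18 tested members of this panel, 3 rose and 12 fell, with a median log2 change of -0.18 against 0.01 over all genes. HK2, the inducible hexokinase that can sit on mitochondria (chr2:74833981-74893359, coordinates on GRCh38 as the deposited tables give them), had 26.3, 31.7 and 28.9 CPM in the lonidamine libraries, against 7.22, 5.83 and 5.22 CPM in the vehicle libraries. All lonidamine values lay above all vehicle values, a 4.75-fold higher level with adjusted p = 8.82e-17. Its paralog HK1, the constitutive hexokinase, had 157, 169 and 167 CPM with lonidamine and 169, 170.2 and 159 CPM with vehicle. The HK1 groups overlapped and HK1 was not called (adjusted p = 0.737). SLC2A1, the glucose transporter GLUT1, had 142, 159.5 and 145 CPM in the lonidamine libraries, against 57.7, 58.96 and 49.9 CPM in the vehicle libraries. It was 2.68-fold higher with lonidamine, again without overlap (adjusted p = 1.16e-17).

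Transcripts for lactate production and export fell. SLC16A3, encoding the lactate exporter MCT4 (chr17:82228397-82261129), had 145, 148 and 146 CPM in the lonidamine libraries, against 346, 361 and 358 CPM in the vehicle libraries. The lonidamine values lay within a few CPM of each other and well below every vehicle value, 2.42-fold lower (adjusted p = 6.36e-20). LDHA, the lactate dehydrogenase subunit that favours lactate formation, had 691, 752 and 678 CPM in the lonidamine libraries, against 1621, 1575 and 1549 CPM in the vehicle libraries, and was 2.24-fold lower (adjusted p = 1.28e-18). LDHB, the other main subunit, averaged 367 ± 16.3 CPM with lonidamine and 519 ± 14.98 CPM with vehicle (± SD, n = 3 each, here and for the averages below) and was 1.42-fold lower. BSG, the chaperone that carries monocarboxylate transporters to the membrane, averaged 314 ± 2.43 CPM with lonidamine and 451 ± 5.89 CPM with vehicle and was 1.43-fold lower. The other transporter gene, SLC16A1 (MCT1), had 84.5, 84.1 and 79.6 CPM with lonidamine and 92.7, 95.6 and 93.3 CPM with vehicle. These did not overlap but differed by only 1.13-fold (adjusted p = 0.00341). EMB, another transporter chaperone, was 1.11-fold lower (adjusted p = 0.00502).

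A pyruvate carrier gene rose while genes of complex II fell. MPC1, one subunit of the mitochondrial pyruvate carrier, had 13.6, 17.9 and 17.4 CPM in the lonidamine libraries, against 9.02, 10.6 and 8.55 CPM in the vehicle libraries, a 1.74-fold higher level (adjusted p = 7.94e-07). Its partner MPC2 had 43.1, 40.9 and 33.6 CPM with lonidamine and 47.98, 41.4 and 46.1 CPM with vehicle. The MPC2 groups overlapped, its adjusted p was 0.0443, and its call was lost in 4 of the alternative analyses. SDHA, the flavoprotein subunit of succinate dehydrogenase, had 102, 102 and 98.9 CPM in the lonidamine libraries, against 159, 145 and 158 CPM in the vehicle libraries, and was 1.52-fold lower (adjusted p = 2.65e-11). SDHD, which anchors the enzyme in the membrane, averaged 86.2 ± 3.46 CPM with lonidamine and 116 ± 2.59 CPM with vehicle (adjusted p = 1.76e-09). SDHB and SDHC changed by -0.12 and -0.11 on the log2 scale with adjusted p of 0.0323 and 0.0465, and both calls were lost in several alternatives. The assembly factors SDHAF1 and SDHAF2 were not called. VDAC1, the outer-membrane pore to which hexokinase binds, averaged 293 ± 12.6 CPM with lonidamine and 418 ± 3.89 CPM with vehicle and was 1.42-fold lower (adjusted p = 2.07e-12).

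**Figure D2:**
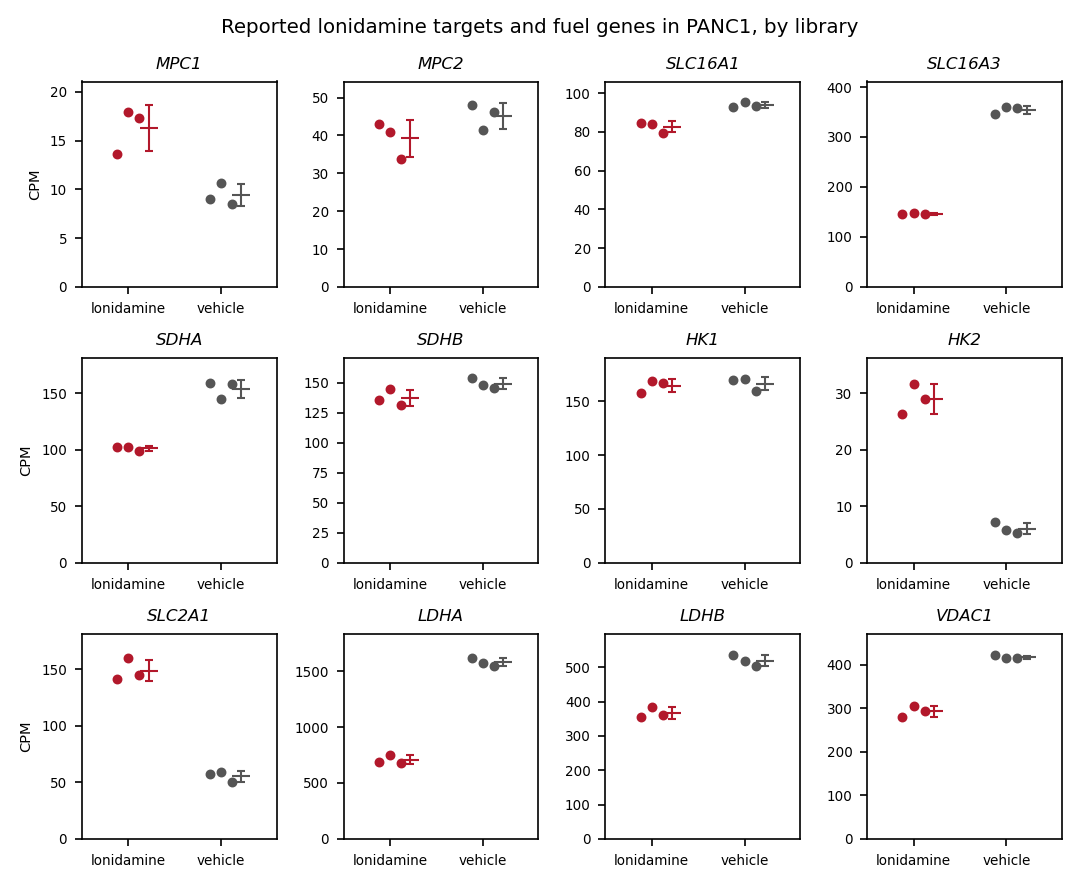
Each panel shows 1 gene and its vertical axis is the normalised level in CPM, starting at 0; points are the 3 lonidamine (left) and 3 vehicle (right) libraries, and the bar beside them is the mean with its SD. HK2, SLC2A1 and MPC1 sit higher with lonidamine, SLC16A3, LDHA, LDHB, SDHA and VDAC1 sit lower, and HK1 overlaps.

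Along glycolysis, 6 of 23 tested genes rose and 13 fell, with a median log2 change of -0.28. PGAM1, a phosphoglycerate mutase, had 257, 271 and 258 CPM with lonidamine and 479, 481 and 479 CPM with vehicle (1.83-fold lower, adjusted p = 2.02e-17), and TPI1, triosephosphate isomerase, was 1.501-fold lower. HKDC1, a further hexokinase named here after its values were seen, had 10.8, 7.78 and 10.5 CPM in the lonidamine libraries, against 0.531, 0.785 and 0.777 CPM in the vehicle libraries. It was 13.7-fold higher. HKDC1 is among the 6 that rose, but passed the low-count filter only through treated groups, so its place there carries no weight.

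Nuclear genes of mitochondrial respiration fell by modest amounts. No gene of the mitochondrial chromosome was available, so the respiratory subunits encoded there were not measured. Of 29 genes of pyruvate dehydrogenase and the tricarboxylic acid (TCA) cycle, 4 rose and 20 fell. IDH2, the mitochondrial NADP-dependent isocitrate dehydrogenase, had 63.5, 69.4 and 58.9 CPM in the lonidamine libraries, against 146, 155 and 138 CPM in the vehicle libraries, which was 2.29-fold lower and the only fall of at least 2-fold among the 29. CS, citrate synthase, averaged 191 ± 1.96 CPM with lonidamine and 309.7 ± 9.19 CPM with vehicle, and DLAT, a pyruvate dehydrogenase subunit, 143 ± 4.56 CPM with lonidamine and 217 ± 8.07 CPM with vehicle. Of 37 complex I genes 1 rose and 20 fell, and of 35 genes of complexes III, IV and V none rose and 30 fell (medians -0.25 and -0.31). ATP5G1, a c-ring subunit of ATP synthase, had 87.1, 81.8 and 84.1 CPM with lonidamine and 152, 147 and 149 CPM with vehicle (1.77-fold lower, adjusted p = 3.81e-14). The complex I subunit NDUFB10 averaged 60.8 ± 1.31 CPM with lonidamine and 104 ± 6.13 CPM with vehicle. Mitochondrial ribosome genes followed with 4 of 37 higher and 21 lower, MRPS12 being 1.401-fold lower.

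Of 16 mitochondrial chaperones and proteases 6 rose and 7 fell, shares near those of all genes. LONP1, the matrix protease, had 162, 163 and 158 CPM in the lonidamine libraries, against 72.9, 70.95 and 79.6 CPM in the vehicle libraries, and was 2.16-fold higher (adjusted p = 1.36e-18). HSPA9, the import-motor chaperone mortalin, averaged 1196 ± 6.87 CPM with lonidamine and 752 ± 23.3 CPM with vehicle, and rose. The folding chaperonin pair moved the other way, HSPD1 averaging 1036 ± 13.9 CPM with lonidamine and 1342 ± 16.8 CPM with vehicle and its co-chaperonin HSPE1 31.7 ± 2.51 CPM with lonidamine and 57.2 ± 1.15 CPM with vehicle. YME1L1, an inner-membrane protease, was 1.37-fold higher.

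Target genes of ATF4 rose almost throughout. ATF4 is a basic leucine zipper activator that binds composite C/EBP-ATF elements, and its targets supply amino acids, tRNA charging and stress signalling. Of 41 tested targets 39 rose, 35 of them at least 2-fold, and 1 fell, with a median log2 change of 2.24. INHBE, described below, is among the 39. It and FGF21 passed the low-count filter only through treated groups, so their places in these counts carry no weight. ATF4 itself (chr22:39519695-39522685), named after its values were seen, had 580.4, 575 and 574 CPM in the lonidamine libraries, against 162, 159.6 and 146 CPM in the vehicle libraries, a 3.696-fold higher level (adjusted p = 5.59e-25). ASNS, asparagine synthetase, had 676, 686 and 674 CPM in the lonidamine libraries, against 80.6, 81.7 and 67.3 CPM in the vehicle libraries. The groups were far apart and ASNS was 8.87-fold higher (adjusted p = 2.88e-27).

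TRIB3, a pseudokinase that feeds back on this pathway, had 258, 258 and 263 CPM in the lonidamine libraries, against 18.8, 22.6 and 17.1 CPM in the vehicle libraries (13.3-fold higher). SESN2, sestrin 2, a leucine sensor that restrains mTORC1, had 189, 195 and 193 CPM in the lonidamine libraries, against 11.99, 14.5 and 12.2 CPM in the vehicle libraries (14.9-fold higher). DDIT3, the CHOP transcription factor, had 142, 147 and 148 CPM in the lonidamine libraries, against 15.7, 18.2 and 15.7 CPM in the vehicle libraries (8.84-fold higher, adjusted p = 6.08e-26). In these genes the lowest lonidamine library was several times the highest vehicle library. CHAC1, which degrades glutathione, had 74.3, 74.2 and 73.4 CPM with lonidamine and 4.56, 4.15 and 3.67 CPM with vehicle (17.9-fold higher). SLC7A11, the cystine importer, had 175, 191 and 208 CPM with lonidamine and 11.4, 12.9 and 11.6 CPM with vehicle (16.1-fold higher). ATF3, a stress-induced repressor, averaged 85.5 ± 2.06 CPM with lonidamine and 7.84 ± 0.995 CPM with vehicle.

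INHBE, an activin subunit gene named after its values were seen, had 58 counts over the 3 lonidamine libraries and 0 over the 3 vehicle libraries, at least 15.4-fold higher when vehicle is set at a floor of 3 counts over the group. With INHBE at that bound the median of the list stayed at 2.24, which it had to because the bound lies above the median. FGF21, a secreted hormone gene also named after its values were seen, had 3 counts with lonidamine and 0 with vehicle and gave no fold. The one member that fell, ALDH18A1 of proline synthesis, changed by -0.10 on the log2 scale, and it was not called in 7 of the alternative analyses.

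**Figure D3:**
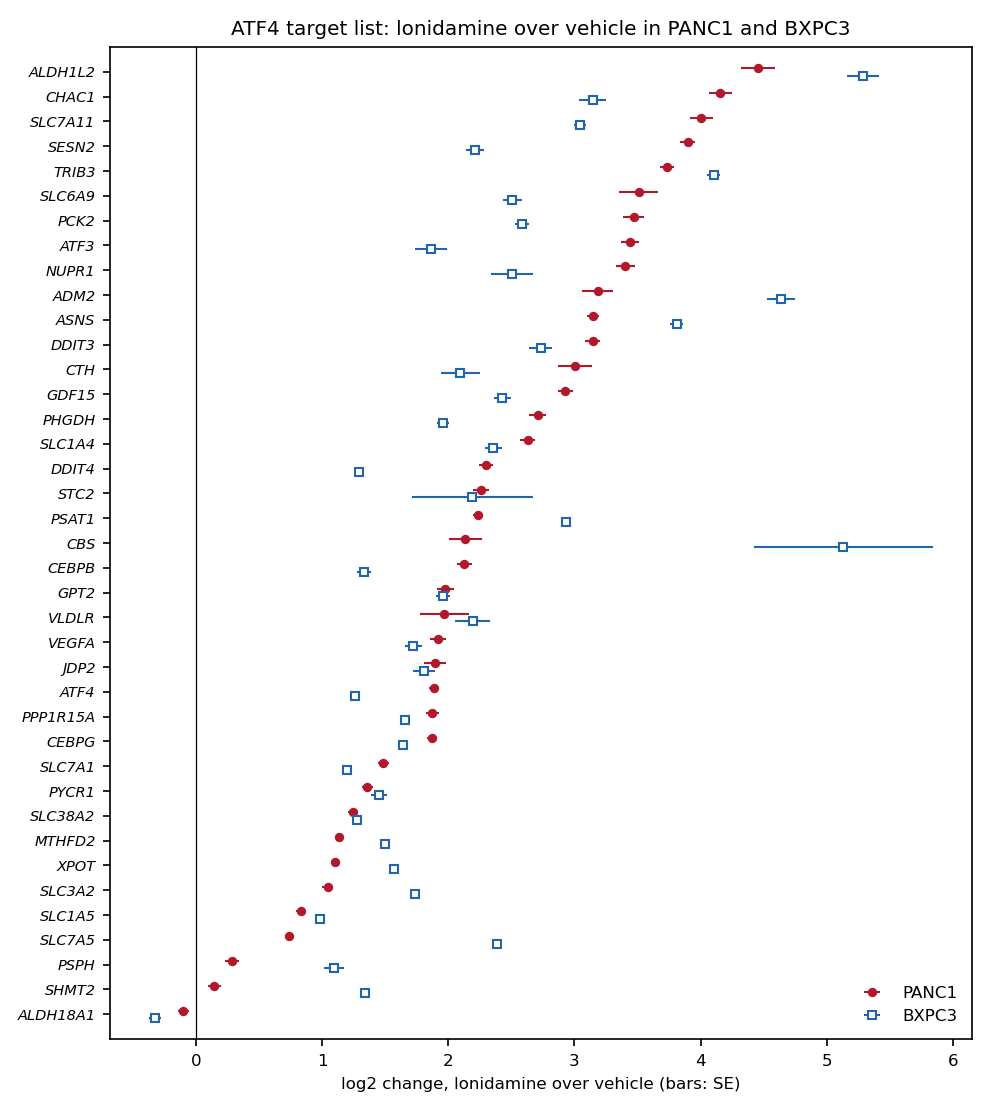
Rows are 39 members of the ATF4 target list with more than 3 vehicle counts in PANC1, and the horizontal axis is the log2 change, lonidamine over vehicle; filled circles are PANC1, open squares are BXPC3, and bars are SE. ALDH18A1 is the one gene left of 0, and SLC7A5 and SHMT2 stand out with larger changes in BXPC3 while SESN2 and ATF3 have larger changes in PANC1.

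Promoters were searched for the C/EBP-ATF element TGATGNAA on both strands, in RefSeq windows (GRCh38.p14) of 300 bases, from 250 before to 50 after the annotated start, available for 10162 of the 12514 genes tested. The element was found in 6 of 32 ATF4-target promoters with a window (18.8%) and in 6 of 12 windows of cytosolic tRNA synthetases, against 160 of 10162 windows of all genes tested (1.57%). Among genes that rose at least 2-fold 5.74% of windows had it, and among those that fell at least 2-fold 1.06%. The shares of the 2 lists describe the genes chosen for them. The windows of CHAC1 (chr15:40953221-40953520, plus strand), ASNS (chr7:97872359-97872658, minus strand) and CARS (chr11:3057374-3057673, minus strand) are shown 5′ to 3′ because these are 3 of the genes above and below whose windows hold the element, which is in capitals.
CHAC1: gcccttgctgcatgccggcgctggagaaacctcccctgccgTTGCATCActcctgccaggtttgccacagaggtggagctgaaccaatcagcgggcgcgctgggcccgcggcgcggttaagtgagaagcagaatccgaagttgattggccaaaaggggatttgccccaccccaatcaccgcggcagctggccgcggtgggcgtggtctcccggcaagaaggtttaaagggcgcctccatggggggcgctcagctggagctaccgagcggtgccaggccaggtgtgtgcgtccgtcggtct
ASNS: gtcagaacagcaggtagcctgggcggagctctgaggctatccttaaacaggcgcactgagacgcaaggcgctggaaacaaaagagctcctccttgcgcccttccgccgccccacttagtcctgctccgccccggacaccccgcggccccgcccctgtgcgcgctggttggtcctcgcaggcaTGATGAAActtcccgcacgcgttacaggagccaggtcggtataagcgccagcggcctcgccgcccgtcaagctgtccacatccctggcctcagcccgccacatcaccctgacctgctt
CARS: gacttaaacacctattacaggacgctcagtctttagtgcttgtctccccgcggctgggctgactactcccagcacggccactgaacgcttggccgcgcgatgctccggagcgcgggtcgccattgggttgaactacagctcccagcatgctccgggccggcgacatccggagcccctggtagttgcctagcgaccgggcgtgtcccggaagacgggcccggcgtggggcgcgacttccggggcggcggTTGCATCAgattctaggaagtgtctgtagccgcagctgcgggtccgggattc
In CHAC1 and CARS the match is on the other strand, as TTGCATCA, and in ASNS it reads TGATGAAA. A match is a description of the letters in this window.

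Cytosolic tRNA synthetases, which charge tRNAs with amino acids, rose in 11 of 19 cases and fell in 7. GARS, the glycyl enzyme, had 1170.4, 1201 and 1179.8 CPM in the lonidamine libraries, against 312, 308 and 304 CPM in the vehicle libraries (3.84-fold higher, adjusted p = 1.89e-26). CARS, the cysteinyl enzyme whose window is shown above, had 433, 437 and 419.7 CPM with lonidamine and 132, 138 and 138 CPM with vehicle (3.16-fold higher), and AARS, the alanyl enzyme, had 501, 504 and 500.0 CPM with lonidamine and 181, 182 and 173 CPM with vehicle (2.81-fold higher). Of 14 genes of serine and one-carbon metabolism 9 rose and 2 fell. PHGDH, the first enzyme of serine synthesis, had 122, 121 and 117 CPM with lonidamine and 19.1, 19.2 and 16.9 CPM with vehicle (6.54-fold higher). PSAT1, the next enzyme, averaged 477 ± 8.96 CPM with lonidamine and 101 ± 4.43 CPM with vehicle, and MTHFD2 of the mitochondrial folate cycle 677 ± 8.05 CPM with lonidamine and 308 ± 12.3 CPM with vehicle. ALDH1L2, a mitochondrial folate dehydrogenase, had 46.8, 46.4 and 54.1 CPM with lonidamine and 2.23, 2.13 and 2.33 CPM with vehicle, which was 21.9-fold higher.

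Among 10 eIF2alpha kinases and regulators, 4 rose and 4 fell, and 1 rose at least 2-fold. That gene, PPP1R15A (GADD34), which returns eIF2alpha to its unphosphorylated form and is itself a target of the pathway, had 111, 117 and 113 CPM in the lonidamine libraries, against 30.2, 32.3 and 30.7 CPM in the vehicle libraries (3.66-fold higher, adjusted p = 2.79e-22). Among the eIF2alpha kinases EIF2AK3 (PERK) was 1.38-fold higher and EIF2AK4 (GCN2) 1.25-fold higher, while EIF2AK1 (HRI) was 1.12-fold lower. EIF2AK2 (PKR) was 1.09-fold lower, a call lost in some alternatives. OMA1 and KIAA0141 (DELE1), which relay mitochondrial stress to HRI, were not called (adjusted p = 0.468 and adjusted p = 0.881).

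Of 29 endoplasmic reticulum (ER) chaperone and stress genes 17 rose, 6 of them at least 2-fold, and 9 fell. HSPA5, the ER chaperone BiP (chr9:125234853-125241330), had 3289, 3465 and 3457 CPM in the lonidamine libraries, against 791, 772 and 737 CPM in the vehicle libraries. It was 4.44-fold higher with no overlap (adjusted p = 4.62e-28). HERPUD1, which serves ER-associated degradation, had 83.7, 91.1 and 84.7 CPM with lonidamine and 21.5, 19.6 and 17.4 CPM with vehicle (4.42-fold higher), and ERN1, the sensor IRE1alpha, had 56.7, 63.3 and 63.6 CPM with lonidamine and 13.5, 14.6 and 12.4 CPM with vehicle (4.54-fold higher). ATF6, the second sensor gene, averaged 207 ± 5.205 CPM with lonidamine and 68.9 ± 3.87 CPM with vehicle, and HYOU1, an HSP70-family ER chaperone, 1138 ± 20.6 CPM with lonidamine and 513 ± 13.6 CPM with vehicle.

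Of 33 autophagy and lysosome genes 17 rose and 5 fell. ULK1, the kinase that starts autophagy, had 231, 222 and 232 CPM with lonidamine and 57.6, 67.3 and 56.8 CPM with vehicle (3.77-fold higher). MAP1LC3B, the membrane tag LC3B, had 351, 373 and 354 CPM with lonidamine and 113, 107 and 105 CPM with vehicle (3.32-fold higher, adjusted p = 7.26e-24), and SQSTM1, the cargo receptor p62, averaged 1785 ± 92.1 CPM with lonidamine and 645 ± 7.68 CPM with vehicle. ATP6V0D2, a proton-pump subunit named after its values were seen, had 57 counts with lonidamine and 0 with vehicle. It was at least 15.1-fold higher on the same floor. With ATP6V0D2 at that bound the list median stayed at 0.16, which it had to because the bound lies above the median. ATP6V0D2 is among the 17 that rose, but passed the low-count filter only through treated groups, so its place there carries no weight. Of 18 mTORC1 regulators 13 rose and 3 fell. DDIT4 (REDD1), an mTORC1 inhibitor, had 244, 254 and 242 CPM with lonidamine and 51.7, 53.7 and 44.9 CPM with vehicle (4.93-fold higher), RRAGC was 2.18-fold higher, and RHEB, the activator of mTORC1, was 1.47-fold lower.

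NRF2 targets, which handle oxidants, iron and glutathione, rose in 15 of 23 cases and fell in 5. HMOX1, heme oxygenase 1, had 473, 491 and 491 CPM in the lonidamine libraries, against 86.2, 83.1 and 80.2 CPM in the vehicle libraries (5.83-fold higher, adjusted p = 1.89e-26). TXNRD1, a thioredoxin reductase, averaged 1139 ± 27.7 CPM with lonidamine and 651 ± 17.2 CPM with vehicle. Both ferritin chain genes rose, FTH1 averaging 2846 ± 33.6 CPM with lonidamine and 1164 ± 19.2 CPM with vehicle and FTL 1745 ± 36.3 CPM with lonidamine and 684 ± 7.63 CPM with vehicle. TFRC, the transferrin receptor, had 1151, 1238 and 1203 CPM with lonidamine and 1233, 1257 and 1196 CPM with vehicle, and was not called. In the iron list as a whole 4 of 9 rose and 3 fell. HMOX1, FTH1 and FTL, which are among those that rose, are on the NRF2 list too. Of 20 hypoxia targets 10 rose and 2 fell (5 fell without lonidamine replicate 2). VEGFA, which is also on the ATF4 list, had 242, 222 and 212 CPM with lonidamine and 57.7, 66.9 and 53.8 CPM with vehicle (3.79-fold higher), EPAS1 (HIF-2alpha) was 2.25-fold higher, and BHLHE40 was 1.65-fold lower.

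More genes of fat storage and oxidation rose than fell, and more genes of fatty acid and sterol synthesis fell than rose. Of 21 genes of PPAR signalling and fatty acid oxidation 13 rose and 4 fell (2 fell without the low-count filter). PLIN2, a coat protein of lipid droplets, had 106, 113 and 104 CPM in the lonidamine libraries, against 18.6, 19.95 and 17.4 CPM in the vehicle libraries (5.77-fold higher, adjusted p = 2.33e-23). ANGPTL4, a lipase inhibitor, averaged 61.2 ± 6.39 CPM with lonidamine and 29.6 ± 2.34 CPM with vehicle, and the receptor gene PPARA 46.5 ± 3.12 CPM with lonidamine and 27.5 ± 1.14 CPM with vehicle. Of 16 fatty acid synthesis genes 4 rose and 10 fell. FASN, fatty acid synthase, had 367, 368 and 389 CPM with lonidamine and 773, 754 and 727 CPM with vehicle (2.004-fold lower, adjusted p = 4.60e-19), and FADS2, a desaturase, was 2.41-fold lower. ME1, the cytosolic malic enzyme, went the other way at 132 ± 3.95 CPM with lonidamine and 60.1 ± 3.98 CPM with vehicle. Of 24 cholesterol synthesis genes 6 rose and 11 fell, with a median log2 change of -0.17. The sterol regulator SREBF2 was 1.51-fold higher. In the short list of cholesterol efflux genes 2 of 6 rose and 2 fell, and 1 rose and 1 fell without vehicle replicate 1.

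Among genes that respond to glucose phosphates through MondoA, 3 of 4 arrestin-family genes rose. TXNIP, which blocks glucose uptake and thioredoxin, had 4.898, 7.95 and 5.67 CPM in the lonidamine libraries, against 1.698, 1.79 and 1.55 CPM in the vehicle libraries. The lonidamine values were spread, with replicate 2 highest, but none overlapped vehicle (3.66-fold higher, adjusted p = 6.97e-08). ARRDC4 had 9.61, 8.74 and 10.4 CPM with lonidamine and 2.12, 2.69 and 2.33 CPM with vehicle (4.03-fold higher), and ARRDC3 averaged 132 ± 6.24 CPM with lonidamine and 54.6 ± 5.801 CPM with vehicle. ARRDC2 averaged 16.3 ± 2.07 CPM with lonidamine and 15.5 ± 1.68 CPM with vehicle, its groups overlapped and it was not called (adjusted p = 0.563). MLXIP, which encodes MondoA, was 1.54-fold lower, and its partner MLX was not called (adjusted p = 0.126). Of the 8 genes 4 rose and 2 fell, KLF10 being the other that fell. The carbohydrate response element was searched as a pair of CACNNG boxes with a spacer of fixed length, on both strands, and was found in 2 of 7 windows of this list (28.6%) and in 1.22% of all windows. Among genes that rose at least 2-fold 1.75% of windows had it, and among those that fell at least 2-fold 0.794%. The share of the list describes the genes chosen for it. The TXNIP window (chr1:145996530-145996829, minus strand) carries the element, in capitals below.
TXNIP: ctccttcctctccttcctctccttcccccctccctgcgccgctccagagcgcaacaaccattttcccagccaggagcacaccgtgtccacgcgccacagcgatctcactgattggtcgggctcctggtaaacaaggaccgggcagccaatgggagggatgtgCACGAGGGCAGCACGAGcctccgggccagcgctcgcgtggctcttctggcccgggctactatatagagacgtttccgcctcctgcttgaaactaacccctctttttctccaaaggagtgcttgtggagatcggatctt

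Of 17 heat-shock genes none rose and 15 fell (median -0.45), although 1 rose with DESeq2 size factors. BAG3, an HSP70 co-chaperone, had 112, 111 and 106 CPM with lonidamine and 195, 194 and 189 CPM with vehicle (1.75-fold lower, adjusted p = 5.41e-15), and HSP90AB1 averaged 2053 ± 42.96 CPM with lonidamine and 3027 ± 67.3 CPM with vehicle. Of 31 proteasome genes none rose and 27 fell (median -0.30), PSMD2 being 1.51-fold lower. Ribosome biogenesis genes fell in 18 of 29 cases and rose in 3. NCL, nucleolin, averaged 969 ± 16.04 CPM with lonidamine and 1677 ± 64.9 CPM with vehicle, and RRN3, a factor for RNA polymerase I, was 1.45-fold higher. Ribosomal protein genes had 6 of 41 members that rose, 13 that fell and a median of -0.02.

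Genes of DNA replication and mitosis fell without exception or nearly so. All 40 tested G1/S and replication genes fell, 35 of them at least 2-fold, with a median log2 change of -1.84. Of 38 G2/M and mitosis genes 37 fell, 36 at least 2-fold, and 1 rose (median -1.78). MCM3, a subunit of the replicative helicase, had 51.5, 56.6 and 55.8 CPM in the lonidamine libraries, against 238, 252 and 238 CPM in the vehicle libraries (4.44-fold lower, adjusted p = 3.97e-24). PCNA, the polymerase clamp, had 52.4, 53.8 and 50.7 CPM with lonidamine and 213, 200.4 and 192 CPM with vehicle (3.86-fold lower). In bulk libraries fewer cycling cells and less RNA per cycling cell cannot be told apart.

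Among the mitotic genes KIF20A, a kinesin of the cleavage furrow, had 22.1, 23.5 and 22.4 CPM in the lonidamine libraries, against 137, 134 and 131 CPM in the vehicle libraries, and was 5.91-fold lower (adjusted p = 1.89e-24). TOP2A, topoisomerase II alpha, had 233, 254 and 249 CPM with lonidamine and 982, 978 and 958 CPM with vehicle (3.96-fold lower). ANLN, the contractile ring protein anillin, had 132, 158 and 148 CPM with lonidamine and 698, 688 and 669 CPM with vehicle (4.69-fold lower). The kinases BUB1 and AURKA averaged 77.5 ± 3.602 CPM with lonidamine and 297 ± 4.22 CPM with vehicle, and 65.97 ± 2.14 CPM with lonidamine and 254 ± 7.92 CPM with vehicle, in that order. Every one of these genes had all lonidamine libraries below all vehicle libraries. Of 25 nucleotide synthesis genes 18 fell and 2 rose. RRM2, the cycle-regulated subunit of ribonucleotide reductase, had 95.6, 102 and 102 CPM with lonidamine and 581, 576 and 585 CPM with vehicle (5.805-fold lower), and TYMS, thymidylate synthase, averaged 76.7 ± 2.89 CPM with lonidamine and 281 ± 5.21 CPM with vehicle.

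Windows were searched for elements named for cell-cycle control. The E2F element, searched as TTTNNCGC, were found in 22 of 35 G1/S windows (62.9%), in 3 of 32 mitosis windows (9.38%) and in 10.7% of all windows. The cell cycle homology region, searched as TTTGAA, showed the opposite split, with 22 of 32 mitosis windows (68.8%), 0 of 35 G1/S windows and 9.16% of all windows. The CCAAT box was found in 24 of the 32 mitosis windows (75.0%) and in 36.6% of all. These list shares describe the genes chosen for the lists. Among genes that fell at least 2-fold, 13.4% of windows had the E2F element, 18.3% the homology region and 43.3% the CCAAT box. Among those that rose at least 2-fold the shares were 9.57%, 6.7% and 35.2%, in that order. MCM3 (chr6:52284693-52284992, minus strand) and PCNA (chr20:5126573-5126872, minus strand) are shown with the E2F element in capitals, and TOP2A (chr17:40417847-40418146, minus strand) and ANLN (chr7:36389612-36389911, plus strand) with the cell cycle homology region in capitals.
MCM3: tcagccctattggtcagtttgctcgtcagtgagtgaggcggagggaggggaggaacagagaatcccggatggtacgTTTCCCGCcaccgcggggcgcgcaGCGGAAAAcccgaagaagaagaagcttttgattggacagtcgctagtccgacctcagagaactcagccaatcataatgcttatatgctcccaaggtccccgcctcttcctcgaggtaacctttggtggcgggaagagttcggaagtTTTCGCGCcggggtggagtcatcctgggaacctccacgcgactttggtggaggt
PCNA: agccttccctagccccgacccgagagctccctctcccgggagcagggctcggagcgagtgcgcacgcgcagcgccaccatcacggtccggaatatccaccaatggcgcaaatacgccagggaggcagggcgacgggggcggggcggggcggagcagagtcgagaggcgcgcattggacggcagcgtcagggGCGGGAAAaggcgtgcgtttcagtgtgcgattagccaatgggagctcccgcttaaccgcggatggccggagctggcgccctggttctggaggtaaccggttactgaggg
TOP2A: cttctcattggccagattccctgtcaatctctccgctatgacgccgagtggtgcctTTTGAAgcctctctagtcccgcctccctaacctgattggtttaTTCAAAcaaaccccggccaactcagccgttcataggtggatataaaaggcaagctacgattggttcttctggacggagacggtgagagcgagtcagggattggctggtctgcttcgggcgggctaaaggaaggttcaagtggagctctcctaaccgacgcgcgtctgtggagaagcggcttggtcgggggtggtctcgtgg
ANLN: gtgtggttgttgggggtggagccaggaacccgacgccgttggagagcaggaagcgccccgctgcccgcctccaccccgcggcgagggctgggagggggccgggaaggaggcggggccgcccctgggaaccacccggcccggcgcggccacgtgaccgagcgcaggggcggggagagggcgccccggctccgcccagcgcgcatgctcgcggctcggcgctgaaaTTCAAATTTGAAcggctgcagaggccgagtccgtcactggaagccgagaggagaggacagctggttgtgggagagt
The MCM3 window holds 3 matches and the PCNA window 1, while TOP2A and ANLN hold 2 each, those of ANLN lying side by side on opposite strands.

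Cyclin-dependent kinase inhibitors and damage-response genes were mixed, 13 of 20 rising and 5 falling. CDKN2C, the inhibitor p18, had 11.1, 10.7 and 12.2 CPM with lonidamine and 62.5, 59.9 and 59.4 CPM with vehicle (5.35-fold lower, adjusted p = 5.07e-20). CDKN1A, the inhibitor p21, named after its values were seen, had 66.1, 66.6 and 66.5 CPM with lonidamine and 48.9, 48.98 and 45.8 CPM with vehicle (1.39-fold higher). GADD45A, a stress sensor, averaged 51.5 ± 3.704 CPM with lonidamine and 26.2 ± 1.64 CPM with vehicle. Of 21 apoptosis genes 13 rose and 6 fell. TNFRSF10B, the death receptor DR5, had 197, 190.2 and 188 CPM in the lonidamine libraries, against 46.9, 46.3 and 44.6 CPM in the vehicle libraries (4.18-fold higher, adjusted p = 2.53e-24). PMAIP1 (NOXA), a BH3-only activator, had 23.01, 22.3 and 26.2 CPM with lonidamine and 5.94, 5.604 and 4.89 CPM with vehicle (4.34-fold higher). The survival genes BCL2L1 (BCL-XL) and XIAP rose too, by 2.05-fold and 1.51-fold.

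Keratins are the intermediate filaments of epithelial cells. Here 7 of 8 tested genes fell and none rose, with a median log2 change of -1.83. KRT8 had 516, 462 and 460.3 CPM in the lonidamine libraries, against 1952, 1866 and 1897 CPM in the vehicle libraries (3.98-fold lower, adjusted p = 5.58e-24). Its partner KRT18 had 355, 331 and 328 CPM with lonidamine and 1084, 1053 and 1099 CPM with vehicle (3.19-fold lower), and KRT19 had 169, 152 and 151 CPM with lonidamine and 722, 668 and 714 CPM with vehicle (4.46-fold lower). KRT80 had 25.3, 21.7 and 19.99 CPM with lonidamine and 253, 239.5 and 239 CPM with vehicle (10.97-fold lower). In all 4 genes the groups were far apart. KRT7 was lower from a low level at 4.71, 2.36 and 1.97 CPM with lonidamine and 8.07, 7.17 and 7.44 CPM with vehicle. KRT81 and KRT86, which are among the 7, are near-identical copies whose counts may be split uncertainly, and KRT17 had 1 count with lonidamine and 2 with vehicle and was not called.

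**Figure D4:**
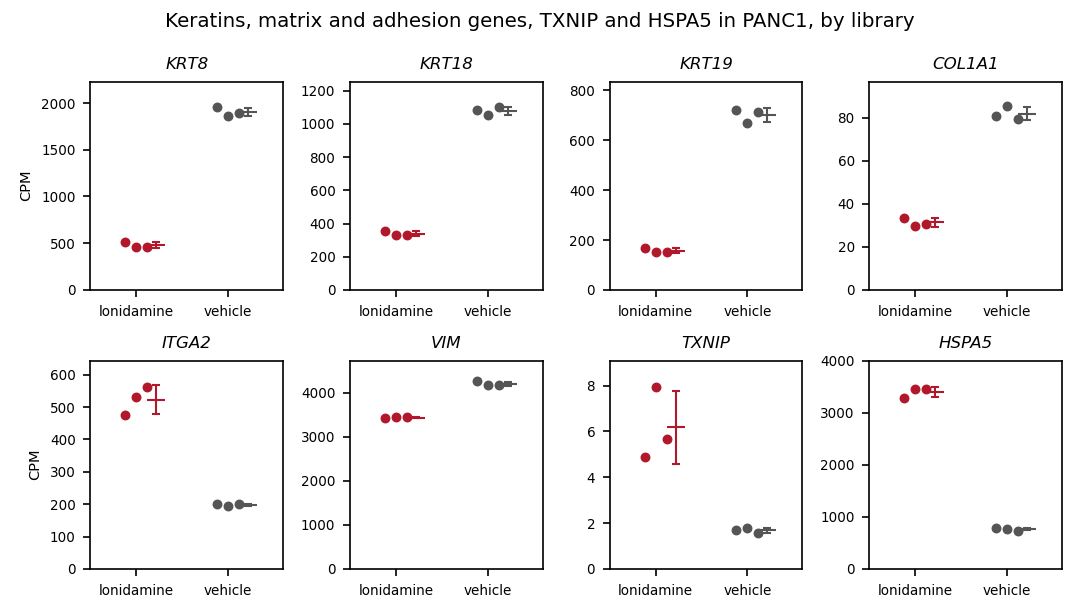
Each panel shows 1 gene with the normalised level in CPM on a vertical axis from 0; points are the 3 lonidamine (left) and 3 vehicle (right) libraries with mean and SD beside them. The keratins, COL1A1 and VIM are lower with lonidamine, and ITGA2, TXNIP and HSPA5 are higher, with no overlap in any panel.

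Cell-surface and junction genes did not follow a single epithelial or mesenchymal direction. Of 13 genes of that list 6 rose and 5 fell. CLDN1, a tight-junction claudin, had 68.8, 63.96 and 67.2 CPM with lonidamine and 20.4, 17.7 and 21.2 CPM with vehicle (3.37-fold higher, adjusted p = 6.78e-18), and OCLN, occludin, averaged 144 ± 3.69 CPM with lonidamine and 59.99 ± 2.01 CPM with vehicle. CDH1, E-cadherin, was low in this line and fell further, with 7.67, 8.21 and 9.21 CPM with lonidamine and 14.5, 19.3 and 18.8 CPM with vehicle (2.09-fold lower). The repressor gene ZEB1 was 1.36-fold higher and VIM was 1.22-fold lower. Of 11 integrins 5 rose and 3 fell. ITGA2, a collagen receptor subunit, had 476, 531 and 562 CPM with lonidamine and 201, 195 and 199.8 CPM with vehicle (2.63-fold higher), and ITGA3, a laminin receptor subunit, averaged 1502 ± 18.7 CPM with lonidamine and 834 ± 7.81 CPM with vehicle.

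Matrix genes fell in 14 of 22 cases and rose in 4. COL1A1, the type I collagen chain, had 33.5, 29.7 and 30.8 CPM with lonidamine and 80.98, 85.2 and 79.4 CPM with vehicle (2.62-fold lower, adjusted p = 3.38e-17). COL5A1 averaged 53.2 ± 3.86 CPM with lonidamine and 111 ± 7.66 CPM with vehicle, and the collagen hydroxylase PLOD1 128 ± 4.39 CPM with lonidamine and 240.5 ± 0.227 CPM with vehicle. Of 17 transforming growth factor beta (TGF-beta) response genes 5 rose and 8 fell. TGFB2, a ligand of the pathway, had 20.8, 18.2 and 19.7 CPM with lonidamine and 96.5, 88.2 and 90.6 CPM with vehicle (4.69-fold lower), and its transducer SMAD3 averaged 339.6 ± 9.55 CPM with lonidamine and 695 ± 15.3 CPM with vehicle. Of 18 YAP targets 5 rose and 9 fell, AMOTL2 being 1.74-fold lower and NT5E (CD73) 1.92-fold higher.

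Transporters of protons and bicarbonate differed by gene. Of 12 members 3 rose and 7 fell. SLC4A7, a sodium-bicarbonate importer, had 398, 407 and 428 CPM in the lonidamine libraries, against 241, 244 and 229 CPM in the vehicle libraries (1.73-fold higher, adjusted p = 8.50e-15). The related SLC4A8 had 4.34, 5.505 and 6.004 CPM with lonidamine and 21.02, 24.5 and 26.8 CPM with vehicle (4.53-fold lower), and the anion exchanger SLC4A2 was 1.44-fold lower. CA2, a carbonic anhydrase, was 2.404-fold lower from a low level.

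Aryl hydrocarbon receptor (AHR) genes rose in 6 of 7 cases and none fell. TIPARP, a repressor of the receptor, had 111, 119.8 and 114 CPM with lonidamine and 39.2, 37.3 and 36.4 CPM with vehicle (3.05-fold higher), AHR averaged 131 ± 4.07 CPM with lonidamine and 67.2 ± 1.97 CPM with vehicle, and CYP1B1, a cytochrome P450, 415 ± 6.09 CPM with lonidamine and 227 ± 7.87 CPM with vehicle. CYP1A1, the classic target, had 1.29, 2.01 and 0.822 CPM with lonidamine and 0.743, 0.785 and 0.9996 CPM with vehicle, overlapping at this depth (adjusted p = 0.138). Growth factor genes also moved. Of 10 EGF family ligands and receptors 7 rose and 1 fell, HBEGF being 5.46-fold higher and EGFR 2.06-fold higher. AREG and ERBB3 are among the 7, but averaged 0.402 and 0.629 CPM with vehicle. Both passed the low-count filter only through treated groups, so their places there carry no weight. Of 14 ERK feedback genes 9 rose and 4 fell, DUSP5 averaging 129 ± 2.97 CPM with lonidamine and 38.3 ± 0.881 CPM with vehicle, while CCND1 (cyclin D1), which is on the same list, was 2.22-fold lower. In the insulin-like growth factor list 4 of 13 rose and 8 fell.

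Of 21 interferon-response genes 4 rose and 8 fell, a median log2 change of -0.14 that was -0.26 without lonidamine replicate 2 and -0.38 without vehicle replicate 3. IFIT1, an interferon-induced RNA binder, had 5.91, 2.97 and 4.69 CPM with lonidamine and 31.9, 29.3 and 24.5 CPM with vehicle (6.33-fold lower, adjusted p = 6.77e-15), and OAS3 averaged 31.97 ± 0.412 CPM with lonidamine and 83.7 ± 2.13 CPM with vehicle, whereas ISG20 was 4.12-fold higher and IFI35 2.28-fold higher. Of 12 NF-kB cytokine genes 3 rose and 7 fell, with CCL2 at 10.7, 10.5 and 9.705 CPM with lonidamine and 30.1, 24.2 and 34.4 CPM with vehicle (2.88-fold lower). Of 14 antigen presentation genes 4 rose and 6 fell.

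Several of the largest rises began from very low levels. NGFR, the p75 neurotrophin receptor (chr17:49495293-49515017), had 40.3, 66.3 and 55.4 CPM in the lonidamine libraries, against 0.743, 0.785 and 0.777 CPM in the vehicle libraries. Its lonidamine libraries were spread, with replicate 1 lowest, and all lay above vehicle, 7 counts in each vehicle library (69.4-fold higher). LAMP3, a lysosomal membrane protein induced by stress, had 121, 132 and 124 CPM with lonidamine and 3.93, 3.25 and 2.89 CPM with vehicle (37.3-fold higher, adjusted p = 1.46e-26). RAB39B, a vesicle GTPase, had 65.4, 74.3 and 73.7 CPM with lonidamine and 1.698, 1.79 and 2.78 CPM with vehicle (33.97-fold higher), and BEX2, an X-linked adaptor protein, had 48.98, 49.7 and 50.99 CPM with lonidamine and 1.59, 1.57 and 0.9996 CPM with vehicle (35.6-fold higher). CCND2, cyclin D2, had 298 counts with lonidamine and 4 with vehicle, and BEX4 had 6 vehicle counts, so their folds are imprecise. NGFR, CCND2 and BEX4 had fewer than 10 counts in every vehicle library. They passed the low-count filter, and reached the mean level asked of the largest rises, only through treated groups. Their places among the largest rises therefore carry no weight. BEX2 and THBD each had 1 vehicle library with 9 counts. FAM129A, a stress-response protein, THBD, thrombomodulin, and SPNS2, a sphingosine-1-phosphate exporter, were 21.1-fold higher, 16.7-fold higher and 15.4-fold higher. The remaining 3 of the 12 largest rises, ALDH1L2, CHAC1 and SLC7A11, are ATF4 targets described above.

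The largest falls included differentiation and signalling genes. DHRS3, a retinal reductase, had 3.14, 4.37 and 4.19 CPM in the lonidamine libraries, against 59.01, 54.1 and 59.4 CPM in the vehicle libraries (14.6-fold lower, adjusted p = 9.47e-22). ELF3, an epithelial transcription factor, had 1.57, 2.18 and 1.48 CPM with lonidamine and 23.8, 20.1 and 22.9 CPM with vehicle (12.7-fold lower), and TMPRSS2, a membrane serine protease, had 10.8, 8.56 and 9.46 CPM with lonidamine and 76.1, 72.9 and 72.2 CPM with vehicle (7.68-fold lower). RASL11A, a small GTPase, and GPRC5B, an orphan receptor, were 13.97-fold lower and 13.5-fold lower. DRD2, a dopamine receptor, had 4.71, 5.16 and 5.76 CPM with lonidamine and 42.03, 45.7 and 40.2 CPM with vehicle (8.14-fold lower). FAM111B, MDGA1, RAB26 and CRISPLD2 lay between 8.26-fold and 12.03-fold lower. KRT80 has been described, and C20orf166-AS1 was 11.3-fold lower. None of the sources used here gives the strand setting of the counting, so reads of that antisense RNA cannot be told from those of a gene on the other strand.

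The response of PANC1 was compared with that of BXPC3 by testing the difference of the 2 log2 changes over all 24 libraries, which share no vehicle library between lines. Of 13930 genes, 3277 changed more positively in PANC1 (23.5%) and 2540 more negatively (18.2%). With DESeq2 size factors the counts were 2815 and 2954, so which direction held more genes depended on the scaling. Genes that rose in PANC1 and fell in BXPC3, with the difference called, numbered 415 (2.98%), and those that fell in PANC1 and rose in BXPC3 498 (3.58%). The ATF4 list had medians of 2.24 over 41 genes in PANC1 and 2.03 over 40 in BXPC3, so the sets differ. By the test 19 of 41 members were more positive and 12 more negative in PANC1. The 41 include INHBE and FGF21, each at 0 vehicle counts in PANC1. For SLC7A11 the log2 change was 4.01 in PANC1 and 3.05 ± 0.05 (± SE) in BXPC3, while for PSAT1 it was 2.24 in PANC1 and 2.93 ± 0.04 in BXPC3.

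Cell-cycle lists fell less in PANC1. The G1/S median was -1.84 in PANC1 and -2.74 in BXPC3, with 34 of 40 genes less negative in PANC1 by the test, and the G2/M median was -1.78 in PANC1 and -2.83 in BXPC3, with 37 of 38. TYMS differed by 2.67 ± 0.11 on the log2 scale (adjusted p = 1.97e-21), whereas MCM4, a helicase subunit, did not pass (0.05 ± 0.07, adjusted p = 0.639). Interferon genes had medians of -0.14 over 21 genes in PANC1 (-0.38 without vehicle replicate 3) and -1.80 over 20 in BXPC3. By the test 19 of 21 were more positive in PANC1. Of 12 NF-kB cytokine genes 10 were more positive in PANC1. Keratins had medians of -1.83 over 8 genes in PANC1 and -0.50 over 7 in BXPC3, where KRT81 had no value. The 8 include KRT17, at 1 lonidamine and 2 vehicle counts in PANC1, so the medians cover different sets. By the test 7 of 8 were more negative in PANC1, the near-identical KRT81 and KRT86 among them. In BXPC3 KRT17 and KRT86 rose, by 1.37 and 1.18 on the log2 scale, and 5 keratins fell. For KRT18 the difference was -1.51 ± 0.05 (adjusted p = 9.94e-24).

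Single genes of the fuel and stress lists also differed between the lines. HSPA5 changed by 2.15 in PANC1 and 0.15 ± 0.03 in BXPC3, a difference of 2.04 ± 0.04 (adjusted p = 5.32e-31). SLC2A1 changed by 1.42 in PANC1 and 0.02 ± 0.04 in BXPC3 (adjusted p = 1.77e-18). SLC16A3 fell in PANC1 and rose in BXPC3, -1.28 against 0.30 ± 0.05 (adjusted p = 3.67e-21). FASN likewise changed by -1.003 in PANC1 and 0.55 ± 0.05 in BXPC3 (adjusted p = 2.52e-20). LDHA changed by -1.16 in PANC1 and -1.07 ± 0.03 in BXPC3, and the difference of -0.06 ± 0.06 did not pass (adjusted p = 0.483). CYP1A1, not called in PANC1, changed by 4.29 ± 0.15 in BXPC3 (adjusted p = 2.60e-07 for the difference).

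**Figure D5:**
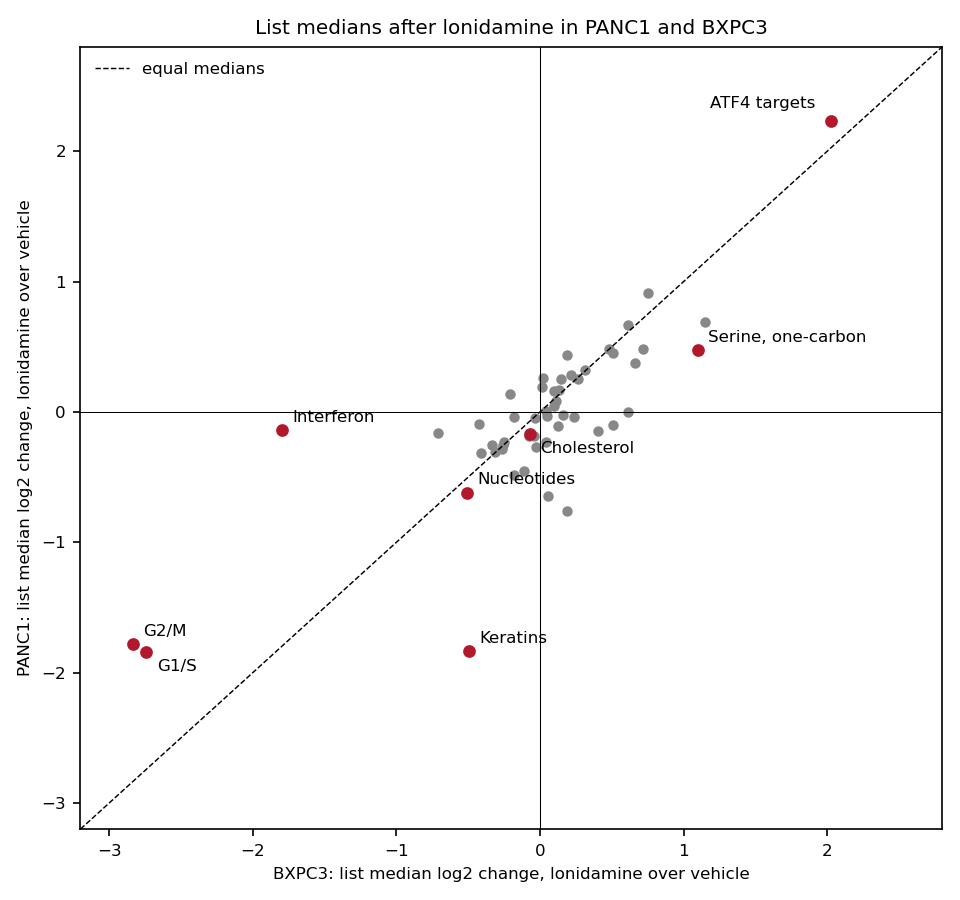
Each point is 1 of 53 gene lists with at least 5 members tested in each line; the vertical axis is the median log2 change, lonidamine over vehicle, in PANC1 and the horizontal axis that in BXPC3, and the dashed line marks equal medians. The ATF4 list lies near the line at 2.24 and 2.03, the cell-cycle and interferon lists lie above it, and the keratins lie below it.

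Within PANC1, 300 uM lonidamine was set beside 5 uM SR4, a contrast that uses no vehicle library; the doses differ. Of 12514 genes 4111 were higher with lonidamine (32.9%) and 4175 lower (33.4%). Cholesterol synthesis genes stood higher with lonidamine in 23 of 24 cases, with a median difference of 0.90. Mitosis genes stood lower with lonidamine in 37 of 38 cases (median -0.88), ribosomal proteins in 39 of 41 (median -0.29) and hypoxia targets in 16 of 20 (median -0.68). KRT80 differed by -3.21 ± 0.06 on the log2 scale (adjusted p = 3.31e-25), while the keratin list is not counted here because KRT17, at 1 count with lonidamine and 2 with vehicle, reached the low-count filter among these groups only with SR4, and KRT81 and KRT86 are near-identical copies. The ATF4 list was divided, 20 of 41 higher and 16 lower with lonidamine. Its 41 members include INHBE and FGF21, which passed the filter only through treated groups.

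Among the largest differences from SR4, CTGF (CCN2), a YAP and TGF-beta target, averaged 270.2 ± 18.6 CPM with lonidamine and 2532 ± 148 CPM with SR4 (adjusted p = 8.89e-28), against 232 ± 4.18 CPM with vehicle. PLK2, a stress-induced kinase, averaged 60.8 ± 0.689 CPM with lonidamine and 462 ± 20.4 CPM with SR4, against 142 ± 1.65 CPM with vehicle. TGFB2 averaged 19.6 ± 1.32 CPM with lonidamine and 163 ± 4.88 CPM with SR4 (adjusted p = 2.37e-22), and PIM1, a survival kinase, 31.8 ± 2.05 CPM with lonidamine and 207 ± 15.97 CPM with SR4. In the other direction CYP1B1 averaged 415 ± 6.09 CPM with lonidamine and 72.02 ± 4.496 CPM with SR4 (adjusted p = 4.55e-24), ITGA2 523 ± 43.7 CPM with lonidamine and 119 ± 7.49 CPM with SR4, and CX3CL1, a membrane-bound chemokine, 111 ± 7.64 CPM with lonidamine and 25.4 ± 1.96 CPM with SR4. PCLO, a presynaptic scaffold, HAS3, a hyaluronan synthase, PLIN4, a lipid droplet coat protein, and NKX6-2, a homeobox factor, were 2.53 to 2.84 higher on the log2 scale. HK2 was lower with lonidamine than with SR4, at 29.00 ± 2.69 CPM with lonidamine and 95.02 ± 1.86 CPM with SR4 (adjusted p = 7.16e-19), against 6.09 ± 1.02 CPM with vehicle.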

How the data were processed

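Messenger RNA of PANC1 and BXPC3 cells was sequenced in 24 libraries, 3 for each of 4 treatments in each line. The deposited tables hold raw read counts per gene that the authors made, with gene positions; per the submitters' processing notes the tools were STAR 2.7.8a, Partek and DESeq2 with GRCh38 (hg38). No source used here states their roles, the counting tool, the annotation or the strand setting. Per the labels' protocols, RNeasy columns and the KAPA mRNA Hyper Prep kit were used. Columns were assigned to samples by the names in their headers. The number of 1 BXPC3 column of SR4 matches no sample title, so it was used as an unnumbered library of that group in the fits that hold BXPC3.

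The 12 PANC1 libraries were fitted together in 4 groups with edgeR 4.0.16 in R 4.3.3, by the quasi-likelihood test with trimmed-mean (TMM) scaling and its low-count filter (minimum count 10), with 8 residual degrees of freedom from the groups. This tested 12514 of 25168 genes. Some list members that rose, such as FOXO4, RORA, AMT and ESRP1, averaged at most 0.876 CPM with vehicle. These passed the filter only through treated groups, so their places in list counts carry no weight. The biological coefficient of variation was 3.79%. Genes were called at a Benjamini-Hochberg adjusted p under 0.05. The difference between lines was an interaction over all 24 libraries (13930 genes), and each BXPC3 change came from the 12 BXPC3 libraries. The standard error of a log2 change is its size divided by the square root of the F statistic.

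The members, that is the contrast described, and the 57 gene lists were chosen with earlier results of these data known. Of 1143 list entries 1103 were matched by symbol, 39 by synonym and 1 was unmatched, and 1041 were tested. Some genes are on more than 1 list, SESN2, PSAT1, HK2, LDHA and SLC2A1 among them, so list counts are not independent. Genes named are the 12 largest called rises and the 12 largest called falls whose mean log2 CPM reached 2 with no overlap between groups; up to 5 called members of each list with the smallest adjusted p, any member of a list of 12 or fewer, and the panel of lonidamine targets; and the 8 largest differences in each direction between lines and from SR4. Promoter windows are from RefSeq (GRCh38.p14), and where a gene had several the first was kept. Elements of other pathways were searched too, and their shares are not reported here.

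Tested on simulated data made from these libraries for the contrast of lonidamine and vehicle (12360 genes), the test recovered 75.5% of genes planted at 0.5 log2 and 89.9% of those planted at 1 log2, with 11 false among 174 calls. The planted genes tested numbered 98 and 99, in that order, whereas 69.2% of genes were called in the data. The simulated rates therefore may not hold for this contrast. Alternatives were DESeq2 size factors, the DESeq2 1.42.0 test, no low-count filter, a replicate block, only the groups compared, and leaving out each library. Some genes are not reported here. Intervals cover counting error only.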

Additional observations from a re-analysis of the deposited data

Results flagged for a closer look

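The genes below were taken up because their lonidamine responses in PANC1 and BXPC3 differed by the test of the difference itself, being the 8 most positive and 8 most negative called genes whose mean log2 CPM over 24 libraries reached 2. Values are differences in log2 change, PANC1 minus BXPC3. The difference was 7.65 for NGFR, 7.26 for CCND2 and 4.76 for LAMP3. In PANC1 these genes rose from low vehicle levels, and in BXPC3 NGFR and CCND2 fell. BCAT1, a branched-chain aminotransferase, differed by 4.83 and had 5 and 21 counts in the BXPC3 lonidamine and vehicle libraries.

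Several of these values rest on a few counts in 1 line. LCN2, MAL2, IFI16, LTBR, TNS4 and TP63 reached the mean level through BXPC3. In the PANC1 lonidamine and vehicle groups they averaged at most 1.77 CPM, whereas MAL2 averaged 552.6 and 429.9 CPM in those of BXPC3. Their differences are therefore no measure of a response in PANC1. LCN2 differed by 6.37 and had 62 counts with lonidamine and 1 with vehicle in PANC1, a ratio of 49.2 with an exact 95% counting interval of 8.52 to 1980.0. MAL2 differed by 4.09 with 9 and 0 counts in PANC1, at least 2.38-fold higher with lonidamine on a floor of 3 counts over the group. IFI16 differed by 4.05 with 6 and 0 counts, at least 1.59-fold higher. RAB34 differed by 4.98 with 0 lonidamine and 16 vehicle counts in BXPC3, at least 4.78-fold lower there with lonidamine. In PANC1 RAB34 was also called lower, with a log2 change of -0.40. For genes with a group at 0 counts the fitted difference depends on the prior count.

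In the other direction OSCAR differed by -4.90, rising in both lines and more in BXPC3, where it had 682 lonidamine and 8 vehicle counts. MDGA1 differed by -3.96 on larger counts, with 180 lonidamine and 1692 vehicle counts in PANC1. C1orf106 differed by -4.74 with 6 and 140 counts in PANC1, and SORBS2 by -3.89 with 5 and 62. LTBR differed by -4.78 with 1 lonidamine and 18 vehicle counts in PANC1, 22.7-fold lower with a counting interval of 3.58 to 944. TNS4 differed by -4.42 with 0 and 11 counts, at least 4.62-fold lower, and TP63 by -4.06 with 0 and 4, at least 1.68-fold lower. CAPN12 differed by -3.53 and had 44 lonidamine and 4 vehicle counts in BXPC3. In PANC1 CAPN12 was not called, with a log2 change of -0.05 and 802 lonidamine and 668 vehicle counts. Intervals and bounds cover counting error only.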

How the results depend on the processing

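The counts of genes called stayed within 1.5 times of the reported value in all 100 recomputations of the 8 counts. Leaving out 1 library at a time gave 4110 to 4199 genes higher and 4030 to 4174 lower with lonidamine than with vehicle. Without the low-count filter 4675 were higher and 4240 lower, and with the DESeq2 test 4084 and 3962. Which direction held more genes turned round in 2 comparisons. Between lines 2815 changes were more positive and 2954 more negative in PANC1 with DESeq2 size factors, and 2592 and 2733 with the DESeq2 test. Against SR4, 4299 genes were higher and 4115 lower with lonidamine without the low-count filter. Of the 8659 calls, 92% to 99.7% were made again in the same direction under each alternative and 0 were called in the opposite direction. Of the calls between lines 87.2% to 96.6% were made again.

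The labels number replicates 1 to 3 in each group, but same-numbered lonidamine and vehicle libraries did not deviate together (r = -0.135, -0.0736 and -0.027), so the numbers were not taken as pairs. With a replicate block 4357 genes were higher and 4246 lower with lonidamine than with vehicle, 4068 higher and 4154 lower than with SR4, and 3189 more positive and 2469 more negative in PANC1 than in BXPC3.

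Among single named genes 46 of the recomputed values lost their call, none changed sign, and 3811 held. The calls lost at least once were those of AHRR, BIRC3, EIF2AK2, IL11, MLXIPL, MPC2, MYLIP, NFKB1, NR1H3, PRKAA1, SDHB and SDHC, and, between lines, of IFI16, MAL2 and TP63. Their cause was not tested. Among recomputed values of lists, 47 medians moved by more than the spread between libraries and 503 did not, and 16 counts moved by more than 1.5 times and 1084 did not. Thus 1 heat-shock gene was called higher with DESeq2 size factors, without the filter and under the block, and 1 proteasome gene without the filter; the single ATF4 target called lower was not called in 7 alternatives; 5 hypoxia targets were called lower without lonidamine replicate 2, against 2. The keratin median was -2.13 without lonidamine replicate 1, and the interferon median -0.26 without lonidamine replicate 2 and -0.38 without vehicle replicate 3. Depth limits genes with a few counts in 1 group, whose folds are given with bounds or intervals.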

Other observations

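Further gene lists were described by the same counts. Of 17 circadian clock genes 11 rose and 4 fell. NFIL3, a clock output repressor, had 74.5, 76.9 and 73.2 CPM with lonidamine and 17.4, 14.5 and 15.99 CPM with vehicle (4.68-fold higher, adjusted p = 2.05e-21), and NPAS2 averaged 385 ± 16.2 CPM with lonidamine and 175 ± 4.19 CPM with vehicle, while BHLHE41 was 1.73-fold lower. Of 13 polyamine and urea cycle genes 6 rose and 5 fell. ARG2 is among the 6, but passed the low-count filter only through treated groups, so its place there carries no weight. ASS1, argininosuccinate synthase, had 35.3, 39.4 and 38.7 CPM with lonidamine and 6.79, 7.51 and 6.55 CPM with vehicle (5.44-fold higher, adjusted p = 5.19e-18), and ARG2, mitochondrial arginase, had 7.76, 8.300 and 8.22 CPM with lonidamine and 0.425, 0.448 and 0.889 CPM with vehicle (13.6-fold higher). For ASS1 the log2 change was 2.44 in PANC1 and -0.32 ± 0.04 in BXPC3, and the difference passed (adjusted p = 8.29e-22). Of 11 genes of AMPK and FOXO signalling 5 rose and 4 fell, PRKAB2, a regulatory AMPK subunit, averaging 53.4 ± 2.31 CPM with lonidamine and 19.2 ± 1.32 CPM with vehicle.

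Of 13 small nucleolar RNA hosts and nuclear RNAs 7 rose and 3 fell, GAS5 having 151, 153 and 146 CPM with lonidamine and 50.7, 55.9 and 51.4 CPM with vehicle (2.84-fold higher) and MALAT1 1365, 1057 and 1181 CPM with lonidamine and 573, 697 and 742 CPM with vehicle. Of 20 immediate early genes 8 rose and 8 fell, with FOSL2 1.93-fold higher and EGR1 3.86-fold lower. Of 8 drug efflux pumps 2 rose and 4 fell, ABCC1 averaging 342 ± 17.9 CPM with lonidamine and 669.5 ± 16.6 CPM with vehicle (adjusted p = 1.13e-17). Of 7 metallothionein and zinc genes 2 rose and 3 fell. MT2A had 101, 99.3 and 100.4 CPM with lonidamine and 101, 99.9 and 101 CPM with vehicle and was not called, and reads of the metallothionein copies may be split uncertainly. The 1 immune and 3 fibroblast markers that could be tested, CD68 and COL1A1, COL3A1 and PDGFRB, rose in the first case and fell in the others, and of 8 tested line markers 1 rose and 6 fell.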
